A study of Homo sapiens with 6 samples.

Results

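Semaphorins are secreted or membrane-bound guidance proteins. They act through plexin receptors, in many cases together with neuropilins, and reach the actin cytoskeleton and integrins through small GTPases. In the glomerulus, podocytes produce SEMA3A, which is known to affect the shape of podocyte foot processes. SEMA7A, which is held in the membrane by a lipid anchor, binds the plexin PLXNC1 and integrins of the beta1 class. The genes described here are 9 semaphorins (SEMA7A, SEMA3A, SEMA3B, SEMA3C, SEMA3D, SEMA3F, SEMA4B, SEMA4C and SEMA5A) and the receptor PLXNC1. These 10 genes were chosen by gene symbol, with earlier results of the authors' comparison of levamisole and vehicle known, and all 10 were among the 20745 genes of the deposited table.

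The study asked which transcripts change in podocytes under levamisole, and sequenced 3 vehicle and 3 levamisole cultures (1 µM for 24 h) of AB 8/13. This human podocyte line carries a temperature-sensitive immortalizing gene and stands for podocytes in culture only. The labels place the control cultures in serum-free medium, as they do the levamisole cultures, whereas the study's methods place the vehicle in complete medium. The cultures of each group came from different passages of the line.

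The deposited table offers 1 level per gene, the base mean, the authors' mean of read counts after correction for library size. It holds no values per culture or per group. For this reason neither a difference between levamisole and vehicle nor an error of a level could be computed, and no test was run. The deposited table also holds fold changes and p-values of the authors' own comparison, which were left out here. The number of libraries in the mean is not stated. All 3744 genes with a base mean under 1 had different values, whereas there are only 461 ways to place 1 to 5 reads in 6 libraries, the numbers of reads that average under 1 at a size factor of 1. The size factors are unknown, so 461 is not a bound for these data. Whether the mean covers libraries beyond the 6 cultures was not tested. The depth per library is unknown, and no order between neighbouring levels could be tested.

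Among all genes of the table, SEMA7A was well above the middle and its plexin receptor was in the lower part. SEMA7A (ENSG00000138623) is a minus-strand gene of chromosome 15 (GRCh38, 74409289 to 74433958). Its base mean was 107.8, higher than 71.9% of all genes, where the median gene had 21.8. PLXNC1 (ENSG00000136040) is a plus-strand gene of chromosome 12 (94148577 to 94307675). Its base mean was 4.31, higher than 34.2% of all genes and under 5. The study's methods name a minimum of 5 reads per gene in each sample. Whether a gene met that minimum cannot be read from a pooled base mean. Because PLXNC1 has 10033 bases of merged exons and SEMA7A 3800, levels were also divided by exon length. Per kb of merged exons, the level was 28.4 for SEMA7A and 0.430 for PLXNC1, so the ligand stood 66.0 times above the receptor on this scale. The libraries were made from the 3′ ends of transcripts, so counts need not grow with length, and without length scaling the ratio was 25.0.

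The listed genes of the other class of SEMA7A receptor were more abundant than PLXNC1. ITGB1, the beta1 integrin chain, had a base mean of 680 and ITGA1, an alpha chain that pairs with it, one of 90.1. ITGA1 was under SEMA7A by base mean (107.8) and per kb of merged exons (4.86 against 28.4). Per kb of merged exons, ITGB1 was 109 times the level of PLXNC1 and 1.65 times that of SEMA7A. By base mean these ratios were 158 and 6.31, and per kb of the longest transcript 210 and 3.79. These are levels of transcripts, and the proteins at the cell surface were not measured in this table.

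**Figure D1:**
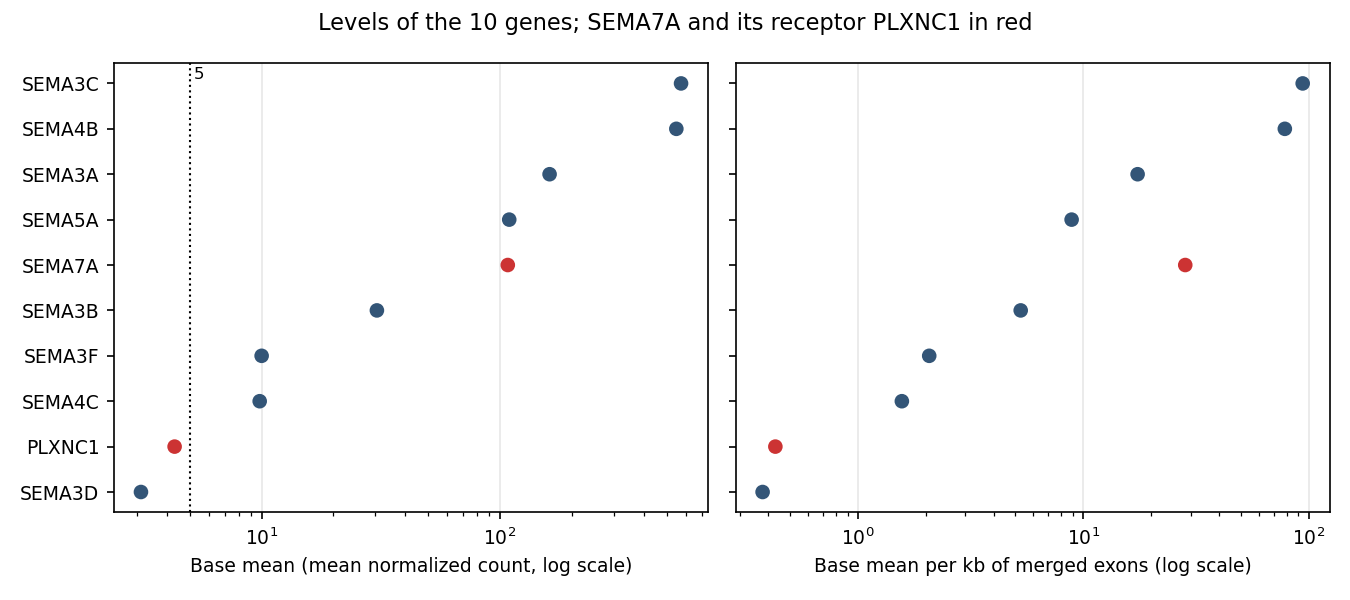
Base mean (left) and base mean per kb of merged exons (right) of the 10 genes, both on log axes. Each point is the authors' mean over the libraries of their fit and has no error bar, since no values per culture are given; the dotted line marks 5. SEMA7A (red) moves from the fifth place on the left to the third on the right, while PLXNC1 (red) and SEMA3D are the 2 lowest on both scales.

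Among the secreted class 3 semaphorins listed here, SEMA3C was the highest by base mean. It had a base mean of 575 (ENSG00000075223, chromosome 7, 80742538 to 80922359, minus strand), above 93.0% of all genes. SEMA3A, whose receptor contains a neuropilin and a class A plexin, followed at 161, above 78.3% of all genes. SEMA3B was at 30.4 and SEMA3F, a ligand that binds mainly NRP2, at 9.996. SEMA3D was the lowest of the 10 genes at 3.12 (ENSG00000153993, chromosome 7, 84995553 to 85187056, minus strand), above 31.1% of all genes. The class thus ran over a range of 250-fold per kb of merged exons, from 0.377 for SEMA3D to 94.2 for SEMA3C. By base mean the range was 184-fold, and the low level of SEMA3D has an unknown error.

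The 2 class 4 members, which span the membrane and act on class B plexins, lay far apart. SEMA4B had a base mean of 549, above 92.7% of all genes, and SEMA4C one of 9.81, above 42.0%. Per kb of merged exons SEMA4B was 50.1 times SEMA4C. SEMA5A, a transmembrane semaphorin with thrombospondin repeats, had a base mean of 109, next to that of SEMA7A. Its exons are longer, and per kb of merged exons SEMA5A was at 8.88, under the 28.4 of SEMA7A and the 17.4 of SEMA3A.

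A base mean of at least 5 was found for 8 of the 10 genes and for 64.3% of all genes in the table. PLXNC1 and SEMA3D were the exceptions. Compared with the median gene, 6 members were higher and 4 were lower. The last 500 exonic bases, where reads of this protocol mostly fall, were not covered by exons of another gene on either strand for any of the 10 genes in GENCODE 44.

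In the family as a whole, 18 of the 20 semaphorin genes on the list had a row. SEMA3G and SEMA5B were not analysed here. The 9 member semaphorins held 87.9% of the summed level per kb of merged exons, and 84.6% of the summed base mean. SEMA3C and SEMA4B ranked first and second on both scales, while per kb of the longest transcript SEMA4B (145) stood above SEMA3C (118), and SEMA7A was the third per kb. Class 3 held 46.2% of the summed level per kb, class 4 held 36.6%, SEMA7A alone 10.5%, class 6 held 3.32% and SEMA5A 3.30%. The highest semaphorin outside the members was SEMA4D by base mean (75.9), a ligand of PLXNB1, and SEMA4F per kb of merged exons (11.5). SEMA4A and SEMA6D were the lowest, both with base means under 5.

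Of the plexins, 8 of 9 had a row, and PLXNB3 was not analysed here. PLXNC1 was seventh of these 8 by base mean and per kb, ahead of PLXNA4 at a base mean of 1.78. The highest was PLXNB2, a receptor of class 4 semaphorins, with a base mean of 417. It reached 134 times the level of PLXNC1 per kb of merged exons and 96.8 times by base mean. Class B plexins held 64.1% of the summed plexin level per kb, class A 24.1%, PLXND1 11.3% and PLXNC1 0.427%. PLXND1, which binds SEMA3E without a neuropilin, had a base mean of 109. The neuropilins, which class 3 semaphorins use to bind class A plexins, were both present, NRP1 at a base mean of 293 and NRP2 at 419.

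**Figure D2:**
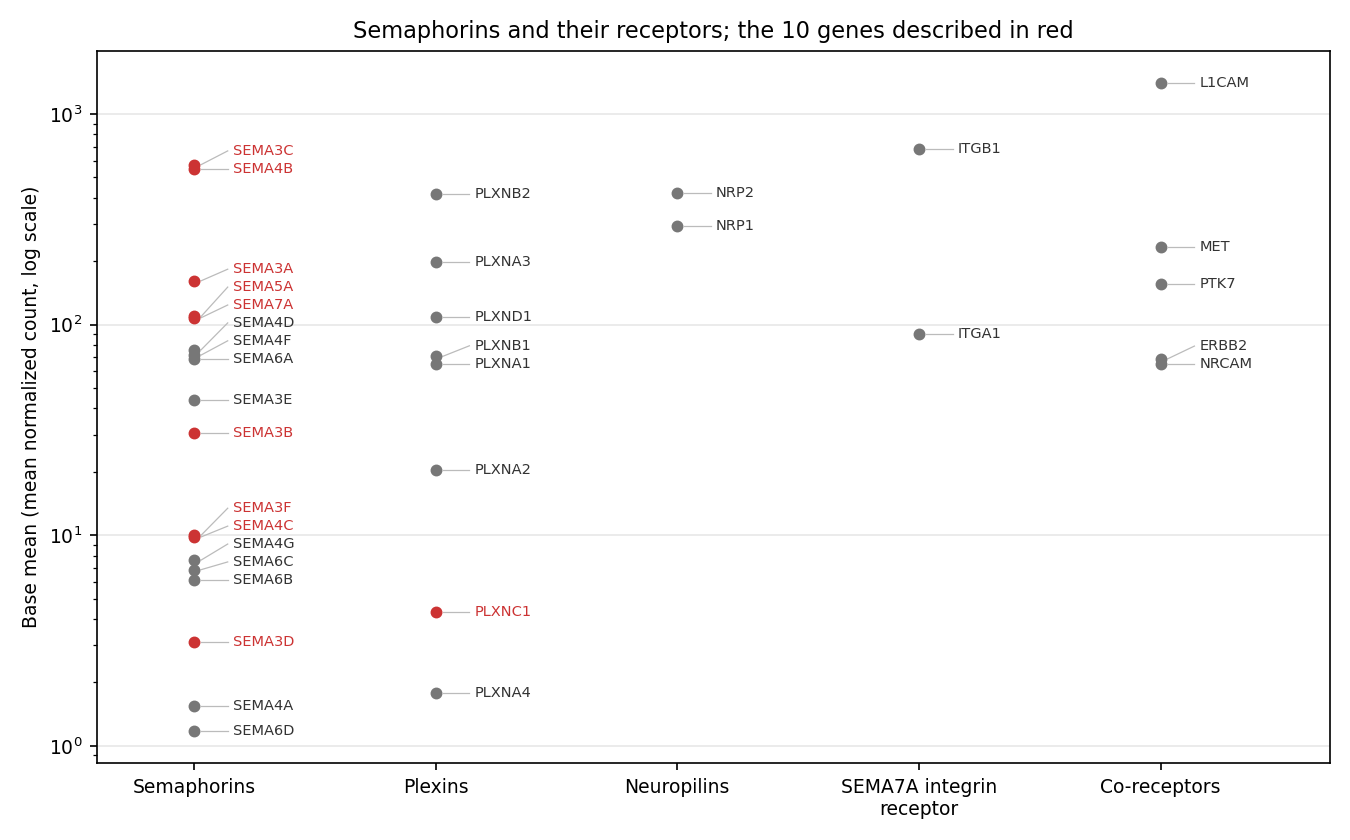
Base mean (log axis) of the semaphorins, plexins, neuropilins, SEMA7A integrin receptor genes and co-receptors with a row in the table, with the 10 genes described in red. Each point is the authors' mean over the libraries of their fit, without error. PLXNC1 at 4.31 lies under 6 of the 7 other plexins, and SEMA3C and SEMA4B lie at the top of the semaphorins.

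Outside the members, the list of the pathway held 50 genes, of which 46 had a row and 42 a base mean of at least 5. Of all genes in the table, 64.3% reached this level. The co-receptor KDR was not analysed here. All 5 co-receptors with a row passed this level, among them the adhesion molecule L1CAM (1400), which associates with NRP1, and the receptor tyrosine kinase MET (233), which associates with class B plexins. Of the 21 intracellular effectors, 20 passed it. MICAL2, an enzyme that oxidizes actin filaments, had a base mean of 4348, FARP1, an exchange factor of the FARP family, one of 2942, and CFL1 (cofilin), which severs actin filaments, one of 16838. RND1, a GTPase that binds plexins, was the exception at 0.898. Unlike the members, some of these genes share their ends with exons of another gene. Of the last 500 exonic bases, 99.4% were covered on the same strand for MICAL3. For FARP2 and the co-receptor ERBB2, 100% were covered on the other strand. The part of the other genes in these levels was not tested.

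The labelled cell type was checked against markers. A base mean of 5 was reached by 7 podocyte markers. ACTN4 (14320), CDKN1C (1019) and CD2AP (929) were high and WT1 was at 6.21, while the phosphatase PTPRO was at 0.333. The slit diaphragm gene NPHS1 and the transcription factor LMX1B were not analysed here. The 3 endothelial markers with a row were at most at 0.690, and the 2 leukocyte markers at most at 2.40. Of 5 tubular markers, AQP1 (243) and EPCAM (76.3) reached 5. The part of cells with such markers in the semaphorin levels was not tested.

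Promoter sequences were taken for SEMA7A, its receptor PLXNC1, and the members with the highest and the lowest base mean, SEMA3C and SEMA3D. They are RefSeq windows of GRCh38.p14 from 250 bases before to 50 after the start, written 5′ to 3′ on the strand of the gene, with each CG dinucleotide in capitals. They cover chr15:74433909-74434208 (SEMA7A, minus strand), chr12:94148327-94148626 (PLXNC1, plus), chr7:80919002-80919301 (SEMA3C, minus) and chr7:85187007-85187306 (SEMA3D, minus). Where a gene has several windows, the one nearest to the start of its MANE Select transcript is given. Which start site the counted transcripts came from was not tested.
SEMA7A: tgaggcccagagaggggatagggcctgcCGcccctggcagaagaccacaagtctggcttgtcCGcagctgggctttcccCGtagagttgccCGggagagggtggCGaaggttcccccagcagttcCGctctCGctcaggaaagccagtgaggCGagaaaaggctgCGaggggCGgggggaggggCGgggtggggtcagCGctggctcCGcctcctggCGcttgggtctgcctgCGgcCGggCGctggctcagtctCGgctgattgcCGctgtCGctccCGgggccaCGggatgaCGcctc
PLXNC1: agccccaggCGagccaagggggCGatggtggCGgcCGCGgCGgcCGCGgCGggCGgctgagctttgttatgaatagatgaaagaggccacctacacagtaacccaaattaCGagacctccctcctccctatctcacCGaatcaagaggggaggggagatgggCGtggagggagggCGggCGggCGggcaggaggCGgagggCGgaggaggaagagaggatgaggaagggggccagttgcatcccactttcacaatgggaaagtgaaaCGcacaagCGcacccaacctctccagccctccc
SEMA3C: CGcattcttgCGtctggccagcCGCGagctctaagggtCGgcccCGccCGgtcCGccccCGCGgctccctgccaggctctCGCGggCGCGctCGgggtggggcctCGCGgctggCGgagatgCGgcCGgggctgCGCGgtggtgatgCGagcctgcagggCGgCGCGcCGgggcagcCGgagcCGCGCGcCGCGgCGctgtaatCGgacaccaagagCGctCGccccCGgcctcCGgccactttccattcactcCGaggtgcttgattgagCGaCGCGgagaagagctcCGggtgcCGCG
SEMA3D: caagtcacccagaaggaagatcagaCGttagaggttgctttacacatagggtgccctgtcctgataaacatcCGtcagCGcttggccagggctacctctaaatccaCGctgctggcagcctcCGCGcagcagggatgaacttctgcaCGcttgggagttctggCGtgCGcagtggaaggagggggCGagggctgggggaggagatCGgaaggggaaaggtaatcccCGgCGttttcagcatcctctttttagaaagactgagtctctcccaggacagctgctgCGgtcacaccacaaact

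The window of SEMA3C held 46 CG dinucleotides, a number that 2.89% of all 35116 promoter windows reach. SEMA7A held 23 and PLXNC1 20, which 35.8% and 41.2% of the windows reach, and SEMA3D held 14, as many as the median window. Windows were matched for 9 of the 10 genes, SEMA3A being the exception. SEMA3F had the most with 47, although its base mean was only 9.996, and SEMA3B had the fewest with 9 at a base mean of 30.4. SEMA4B and SEMA4C both held 37 with base means of 549 and 9.81, so the number of CG dinucleotides did not order the members by level. The set of all windows holds several for some genes. Over the 11329 genes of the table with a matched window, the median number was 27, above those of SEMA7A, PLXNC1 and SEMA3D. By level, the median was 17 at base means under 5, 26 from 5 to under 50 and 28 at 50 or more.

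**Figure D3:**
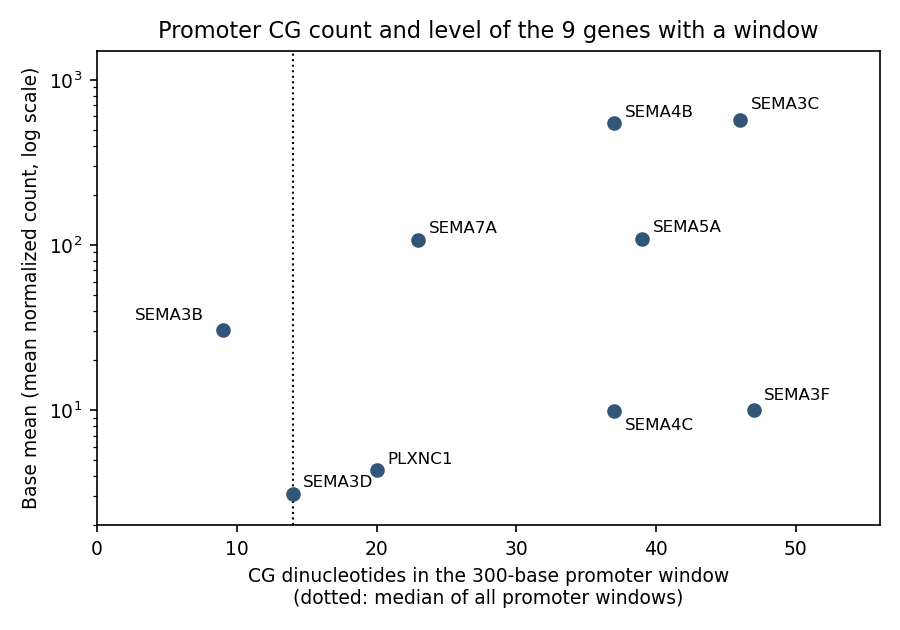
Number of CG dinucleotides in the promoter window (horizontal axis) and base mean (vertical log axis) for the 9 genes with a window; the dotted line is the median of all windows (14). Each point is 1 gene. Over the 11329 genes of the table with a matched window, the median was 27. SEMA4B and SEMA4C share the same number of CG at very different levels, and SEMA3D and PLXNC1, the lowest in level, lie at 14 and 20.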

How the data were processed

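The authors sequenced libraries of 3 vehicle and 3 levamisole cultures, made with an adapted CEL-seq protocol that reads the 3′ ends of transcripts. Per the labels and the methods, reads were trimmed by the authors with Trim Galore 0.4.5, mapped to GRCh38 with STAR 2.7.5a, counted with HTSeq 0.11.0 and analysed with DESeq2 1.22.0. The deposited base mean, a signal, is the mean that DESeq2 takes of each gene's normalized counts across all libraries of a fit. It was the one column used. The 5 other number columns hold the authors' comparison (log2 fold change, its standard error, Wald statistic, p-value and adjusted p-value) and were left out. Base means therefore pool the libraries of the fit and are not levels of levamisole or vehicle cultures alone. Genes with few reads have levels of unknown error.

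Genes were matched by symbol and identifier to GENCODE 44 on GRCh38, a later annotation than the authors', in which 20599 of the 20745 identifiers were found. Merged exons, the longest transcript and overlaps of the last 500 exonic bases were computed with Python 3.11.15, NumPy 2.4.6 and pandas 2.3.3, and plotted with matplotlib 3.10.9. The functions were tested on made-up input. The members and lists were chosen with earlier results of these data known. The genes named are the members and genes of the pathway and marker lists. Alternatives were other minimum levels, other sets of genes for percentiles and other length scalings. The planned edgeR test of levamisole against vehicle was not run, since it needs counts per culture.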

Additional observations from a re-analysis of the deposited data

How the results depend on the processing

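No paired analysis was possible because the table used here pools the cultures. This also kept edgeR, DESeq2, other normalizations and left-out replicates from being run, and the reads per library could not be solved for. Alternatives were compared by whether a value stayed within 1.5 times. The 8 of 10 genes that reached a base mean of 5 became 5 at a minimum of 50, whereas minimums of 1 and 10 gave 10 and 6. The 6 genes above the median became 5 when the median was taken above a minimum level of 1, 5 or 10. Of the 45 pairs of members, 43 kept their order per kb of merged exons and 42 per kb of the longest transcript. The percentile of SEMA7A was 56.3 among genes at a level of 5 or more, where SEMA3B fell from 53.8 to 28.2, SEMA3F from 42.2 to 10.0 and SEMA4C from 42.0 to 9.76. Among genes with at least 1, PLXNC1 was at 19.7 and SEMA3D at 15.98. Among genes with at least 10, SEMA7A was at 51.5 and SEMA3B at 20.2. Levels of PLXNC1 and SEMA3D are low, and the depth per library is unknown.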
